A study of Rattus norvegicus with 6 samples.

Results

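The miRNAs described here are those that blood cells carry or that inflammatory signalling induces, namely both arms of miR-142, miR-223, miR-150, miR-155, miR-146a, and miR-146b. They were chosen by name, and 12 of the 910 names in the deposited count table matched. All 12 had at least 1 count, and 7 of the 12 held enough reads to be tested. The libraries came from the lens capsules of Sprague Dawley rat pups 8 days old at the start. The control group (3 rats, labelled WT) received saline under the skin of the neck on days 3, 5, and 7. The Na2SeO3 group (3 rats, labelled Model) received sodium selenite at 20 μmol/kg on the same days, which clouds the lens, and the lenses of both groups were taken on day 15. One library was made per rat, and in such bulk tissue fewer cells of a type and less RNA per cell cannot be told apart. The comparison asks whether the miRNAs of leukocytes or of an NF-κB response changed in the lens capsules of the Na2SeO3 group.

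A miRNA pairs with target mRNAs through its seed, bases 2 to 8 counted from the 5′ end, and lowers the output of those mRNAs. miR-142 is made in nearly all blood cell lineages, miR-223 mainly in granulocytes and monocytes, and miR-150 in mature lymphocytes. miR-155 is cut from the transcript of the host gene Mir155hg after antigen receptors or Toll-like receptors are engaged. NF-κB induces miR-146a, which lowers Traf6 and Irak1 and so damps the same pathway, and miR-146b has the same seed. The lens holds no vessels of its own, but the fetal vessels around it regress only after birth in the rat.

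Mature sequences were found in the RefSeq table of build GRCr8 for 10 of the 12 names, and those of the tested names are shown with the seed in capitals, because the seeds decide which members can act on the same targets. No sequence is shown for miR-150-5p.
miR-142-3p: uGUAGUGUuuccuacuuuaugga
miR-142-5p: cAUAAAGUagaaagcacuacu
miR-223-3p: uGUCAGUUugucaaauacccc
miR-155-5p: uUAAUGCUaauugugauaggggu
miR-146a-5p: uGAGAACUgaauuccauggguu
miR-146b-5p: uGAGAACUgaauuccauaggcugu

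The seed of miR-146a-5p and miR-146b-5p was the same, and no other pair among the 10 sequences shared a seed. In that table, which held 296 of the 326 rat names tested, no miRNA outside the members carried a member's seed. Over the first 22 bases the miR-146 sequences were equal at 20 and differed by G18A and U21C, with the base of miR-146a-5p first, the position from the 5′ end, and then the base of miR-146b-5p. A read trimmed before base 18 fits both names, and how the authors' counting divided such reads was not tested. In GRCr8 the hairpin of Mir142 lies on the plus strand at chr10:73055104-73055190 and that of Mir223 on the plus strand at chrX:65151383-65151492. Mir155 lies at chr11:37261114-37261178, plus strand, inside the noncoding gene Mir155hg. Mir146a lies at chr10:28349996-28350090 on the minus strand and Mir146b at chr1:255144860-255144947 on the plus strand, so the sequences that share a seed come from separate chromosomes.

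The authors deposited read counts per miRNA name. The counts summed to between 1806596 and 2829903 per control library and between 663096 and 968151 per Na2SeO3 library. A miRNA needed 1.06 to 1.66 CPM (a library's counts scaled to a common total) in a control library, or 3.10 to 4.52 CPM in an Na2SeO3 library, to reach 3 counts. These limits and the exact intervals given below cover counting error only, because PCR copies of a molecule may have been counted as separate reads. All other CPM values are those after TMM scaling, which assumes that the bulk of the miRNAs is equal between libraries. The lens and eye miRNAs listed as markers of the tissue (miR-184, miR-204, miR-182, miR-183, miR-96, and miR-26a) summed to 271929 to 334453 CPM in the control group and 263772 to 282497 CPM in the Na2SeO3 group. Of their 8 tested names 2 fell and 0 rose at an adjusted p-value below 0.05 (edgeR), where 13.8% of all miRNAs tested fell and 20.8% rose, and of these 2 names miR-184 was a DEmiRNA at -1.13 on the log2 scale. Neural retina markers at 35864 to 51451 CPM and muscle markers at 16767 to 31031 CPM were also present over the 6 libraries, and of the 8 retina names tested 3 fell, 2 of them with identical counts, and 1 rose (miR-9a-5p, a call that 12 of 16 alternatives did not keep).

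None of the 7 members tested was a DEmiRNA in the Na2SeO3 group (adjusted p-value below 0.05 and absolute log2 fold change above 1, edgeR's quasi-likelihood test), whereas 16.4% of all 341 miRNAs tested were. No member passed the adjusted p-value alone either, against 34.6% of all miRNAs tested, and none passed an unadjusted p of 0.05. DESeq2 and limma-voom also called 0 of the 7, with 2 and 0 of them at an unadjusted p below 0.05. In no member did the libraries of the groups separate, against 46.3% of all miRNAs tested. The log2 fold change was below 0 in 6 of the 7 members and in 45.2% of all miRNAs tested, and the median was -0.19 in the members and 0.08 in all. A missed threshold does not show that levels were equal, so the interval of each fold change is given. The 95% interval lay within a log2 fold change of -1 to 1 in 6 of the 7 members.

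**Figure D1:**
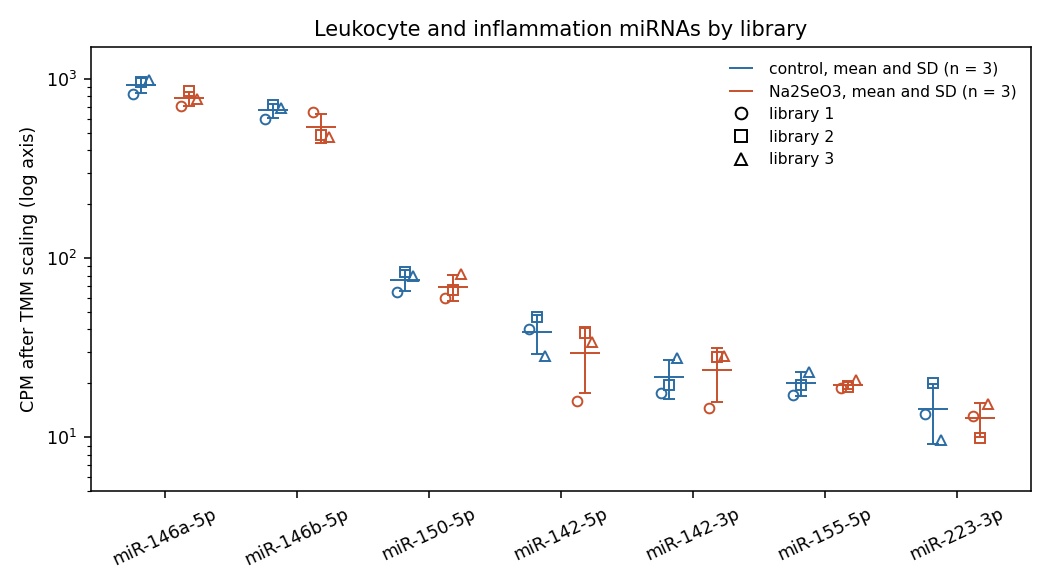
Levels of the 7 members tested in each library, in CPM after TMM scaling on a log axis, for 3 control and 3 Na2SeO3 libraries, with the mean as a wide bar and the SD as whiskers. The miR-146 names lie between 471 and 990 CPM and the other 5 members between 9.70 and 83.7 CPM, and the groups overlap in each member.

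miR-142 is the broadest of the leukocyte markers, and both of its arms were low. The level of rno-miR-142-3p was 17.6, 19.6, and 27.8 CPM in control libraries 1 to 3 and 14.5, 28.1, and 28.6 CPM in Na2SeO3 libraries 1 to 3. The lowest and the highest of these values were both in the Na2SeO3 group, so the control values lay inside its range. Counts ran from 38 to 51 in the control group and were 10, 31, and 26 in the Na2SeO3 group, and the 10 reads of Na2SeO3 library 1 carry an exact Poisson 95% interval of 4.80 to 18.4 reads. The control group averaged 21.7 ± 5.40 CPM and the Na2SeO3 group 23.7 ± 7.97 CPM (SD, n = 3 each). The fit put the log2 fold change at 0.18 (standard error, SE, 0.31, 95% interval -0.48 to 0.85, adjusted p = 0.706 by the same edgeR test). It ranged from 0.024 without control library 1 to 0.38 without Na2SeO3 library 1.

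The level of rno-miR-142-5p was 40.4, 47.0, and 28.4 CPM in control libraries 1 to 3 and 16.0, 38.1, and 34.1 CPM in Na2SeO3 libraries 1 to 3. Na2SeO3 library 1 was the lowest of the 6, while the other two Na2SeO3 libraries lay inside the control range. The control group averaged 38.6 ± 9.41 CPM and the Na2SeO3 group 29.4 ± 11.8 CPM (SD, n = 3 each). The fit put the log2 fold change at -0.36 (SE 0.30, adjusted p = 0.394 by edgeR). Its 95% interval of -1.01 to 0.29 was the only interval among the members that reached past -1. The change ranged from -0.14 without Na2SeO3 library 1 to -0.61 without Na2SeO3 library 2, with no call in either case.

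The arms of one hairpin can be set against each other inside a library, which takes the scaling out. Of the reads on either arm of miR-142, the 3p arm took 30.4% (exact Clopper-Pearson 95% interval 23.5% to 37.9%), 29.5% (21.8% to 38.1%), and 49.4% (38.5% to 60.4%) in control libraries 1 to 3. Control library 3 thus lay apart from control libraries 1 and 2 beyond counting error. Over all miRNAs tested, every pair of control libraries differed beyond it (chi-square over degrees of freedom at least 57.1). In Na2SeO3 libraries 1 to 3 the share was 47.6% (25.7% to 70.2%), 42.5% (31.0% to 54.6%), and 45.6% (32.4% to 59.3%), within the control range. The log2 ratio of the 3p to the 5p count averaged -0.82 ± 0.69 in the control and -0.27 ± 0.15 in the Na2SeO3 libraries (SD over 3 each, two-sided exact permutation test, p = 0.4, adjusted p = 0.667 over 5 ratios, where 3 libraries against 3 cannot go below 0.1). The group difference was 0.55, and without control library 3 it was 0.95 (exact permutation p = 0.1, the smallest that 2 libraries against 3 can give). It was 0.37 without control library 1 and 0.34 without control library 2 (exact permutation p = 0.7 for each).

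miR-223 marks the myeloid lineage and was the least abundant member tested. The level of rno-miR-223-3p was 13.5, 20.2, and 9.70 CPM in the control libraries and 13.1, 9.98, and 15.4 CPM in the Na2SeO3 libraries. The Na2SeO3 values all fell inside the control range. Between 9 and 39 reads per library lay behind them. Means were 14.4 ± 5.30 CPM in the control and 12.8 ± 2.71 CPM in the Na2SeO3 libraries (SD, n = 3 each). This gave a fitted log2 fold change of -0.19 (SE 0.37, 95% interval -0.98 to 0.59, adjusted p = 0.743 by edgeR). Without control library 2 the log2 fold change was 0.12, so 1 library set its direction. The ratio of miR-223-3p to miR-142-3p, which sets a myeloid against a pan-leukocyte miRNA, averaged -0.61 ± 0.79 in the control and -0.82 ± 0.66 in the Na2SeO3 libraries on the log2 scale (SD over 3 each, exact permutation test, p = 0.8, adjusted p = 0.9). The 5p arm, rno-miR-223-5p, held 11 to 13 reads in the control and 3 to 11 reads in the Na2SeO3 libraries and was too low to be tested.

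miR-150 represents mature lymphocytes, in which it lowers the transcription factor Myb, and it was the most abundant member outside miR-146. The level of rno-miR-150-5p was 64.5, 83.7, and 79.5 CPM in the control libraries and 59.6, 66.2, and 81.3 CPM in the Na2SeO3 libraries. The groups covered nearly the same range, with 1 Na2SeO3 library below the lowest control. The control group averaged 75.9 ± 10.1 CPM and the Na2SeO3 group 69.1 ± 11.1 CPM (SD, n = 3 each). The fit put the log2 fold change at -0.13 (SE 0.20, 95% interval -0.57 to 0.31, adjusted p = 0.686 by edgeR), and it ranged from -0.05 without control library 2 to -0.26 without Na2SeO3 library 3. The log2 ratio of miR-150-5p to miR-142-3p averaged 1.82 ± 0.29 in the control and 1.57 ± 0.39 in the Na2SeO3 libraries (SD over 3 each, exact permutation test, p = 0.4, adjusted p = 0.667). Its group difference was -0.25, and it ran from -0.46 without Na2SeO3 library 1 to -0.08 without Na2SeO3 library 2. Between 0 and 5 reads per library fell on rno-miR-150-3p, which was not tested.

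miR-155 rises in activated macrophages and lymphocytes. The level of rno-miR-155-5p was 17.3, 19.6, and 23.3 CPM in the control libraries and 18.9, 19.0, and 20.9 CPM in the Na2SeO3 libraries. The Na2SeO3 values lay inside the control range and close to each other. The control group averaged 20.1 ± 3.03 CPM and the Na2SeO3 group 19.6 ± 1.10 CPM (SD, n = 3 each). The fit put the log2 fold change at -0.02 (SE 0.27, adjusted p = 0.963 by edgeR), the smallest change among the members. The 95% interval ran from 0.660-fold to 1.48-fold. The fitted direction was not stable, at 0.09 without control library 3 and 0.0032 without Na2SeO3 library 2. The other arm, rno-miR-155-3p, was counted 3 times in control library 3 and 0 times in the other libraries, where a count of 0 allows up to 3 reads (a one-sided limit).

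The miR-146 names held 86.9% to 91.1% of the members' counts in each library. The level of rno-miR-146a-5p was 820, 960, and 990 CPM in the control libraries and 710, 853, and 775 CPM in the Na2SeO3 libraries. In 2 of the 3 Na2SeO3 libraries it was below every control. The control group averaged 923 ± 90.7 CPM and the Na2SeO3 group 779 ± 71.4 CPM (SD, n = 3 each). The fit put the log2 fold change at -0.24 (SE 0.16, adjusted p = 0.269 by edgeR). The 95% interval ran from 0.667-fold to 1.07-fold, so under TMM scaling a larger rise of this NF-κB feedback miRNA lay outside it. The bound depends on the scaling. With library size only the log2 fold change was -0.04 (SE 0.16), and with raw reads it was -1.36 (SE 0.35).

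The level of rno-miR-146b-5p was 597, 713, and 691 CPM in the control libraries and 652, 487, and 471 CPM in the Na2SeO3 libraries. Here Na2SeO3 library 1 lay within the control range and the other two lay below it. The control group averaged 667 ± 61.3 CPM and the Na2SeO3 group 537 ± 99.9 CPM (SD, n = 3 each). The fit put the log2 fold change at -0.32 (SE 0.17, 95% interval -0.69 to 0.06, adjusted p = 0.188 by edgeR). Its p was the lowest among the members. Without Na2SeO3 library 1 the log2 fold change was -0.50 with an adjusted p of 0.0254 (edgeR), so 1 library decided this call, and rno-miR-146b-5p was then the only member past the threshold, still short of the fold change of a DEmiRNA.

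The share of miR-146a-5p in the summed reads of miR-146a-5p and miR-146b-5p was 57.9%, 57.4%, and 58.9% in control libraries 1 to 3. In Na2SeO3 libraries 1 to 3 it was 52.1% (exact 95% interval 48.9% to 55.4%), 63.6% (61.1% to 66.1%), and 62.2% (59.3% to 65.0%). The control libraries lay within 2 percentage points of each other, whereas the share of Na2SeO3 library 1 lay below and those of libraries 2 and 3 above every control interval (55.7% to 60.8%). The interval of library 3 overlapped those of control libraries 1 and 3, and the intervals of Na2SeO3 libraries 1 and 2 overlapped no control interval. The SD of the log2 count ratio was 0.05 in the control and 0.37 in the Na2SeO3 group, around means of 0.47 and 0.55 (3 libraries each, exact permutation test of the means, p = 0.9, adjusted p = 0.9). The log2 ratio of miR-146a-5p to miR-142-3p, which sets the NF-κB-induced miRNA against the leukocyte marker, averaged 5.42 ± 0.25 in the control and 5.06 ± 0.43 in the Na2SeO3 libraries (SD over 3 each, exact permutation test, p = 0.3, adjusted p = 0.667). Its group difference was -0.36, and it ran from -0.60 without Na2SeO3 library 1 to -0.20 without Na2SeO3 library 3.

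**Figure D2:**
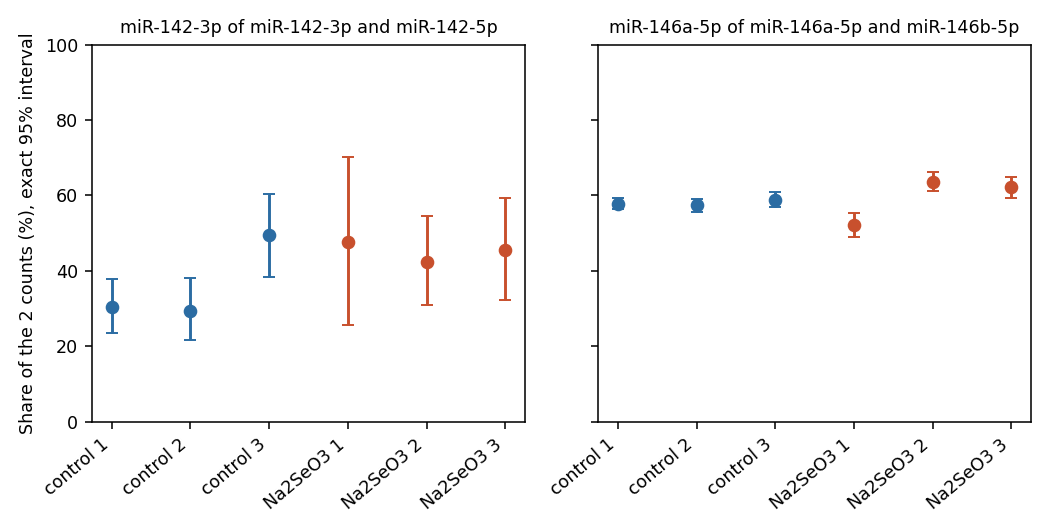
Share of miR-142-3p among the reads of both miR-142 arms (left) and of miR-146a-5p among the reads of miR-146a-5p and miR-146b-5p (right) in each library, in percent, with exact 95% binomial intervals for counting error. Control library 3 stands above the other controls for miR-142, and for miR-146 the controls lie at 57.4% to 58.9% while the Na2SeO3 libraries run from 52.1% to 63.6%.

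Except for miR-142 and miR-223, the members were read almost wholly from the 5p arm. The 3p arm took 0.114% of the reads of miR-146a over all libraries (9 of 7907 reads, exact 95% interval 0.0521% to 0.216%) and 0.356% of those of miR-146b (20 of 5613). In miR-150 the 3p arm took 1.79% (12 of 672 reads) and in miR-155 1.67% (3 of 180 reads). In miR-142 it took 37.2% (199 of 535 reads), so both arms were present there. In miR-223 the minor arm was the 5p arm, with 30.2% (55 of 182 reads). Counts of rno-miR-146a-3p were 1 to 4 in the control and 0 to 1 in the Na2SeO3 libraries. Those of rno-miR-146b-3p were 2 to 6 and 1 to 5. Such levels lie near 3 counts, and what difference could be found at this depth was not tested. With no filter on low counts, the adjusted p of the 5 names otherwise not tested ranged from 0.521 to 0.790 (edgeR, 725 names).

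Ordered by mean CPM in the control group, the members ranked 59 (rno-miR-146a-5p), 74 (rno-miR-146b-5p), 181 (rno-miR-150-5p), 225 (rno-miR-142-5p), 257 (rno-miR-142-3p), 262 (rno-miR-155-5p), and 283 (rno-miR-223-3p) among the 341 miRNAs tested. The control ranges of neighbours in this order did not overlap down to the arms of miR-142, which came within 1 CPM of each other in control library 3. The ranges of rno-miR-142-3p, rno-miR-155-5p, and rno-miR-223-3p overlapped. All 12 names summed to 0.159% to 0.175% of the counts of a control library and 0.149% to 0.172% of those of an Na2SeO3 library.

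**Figure D3:**
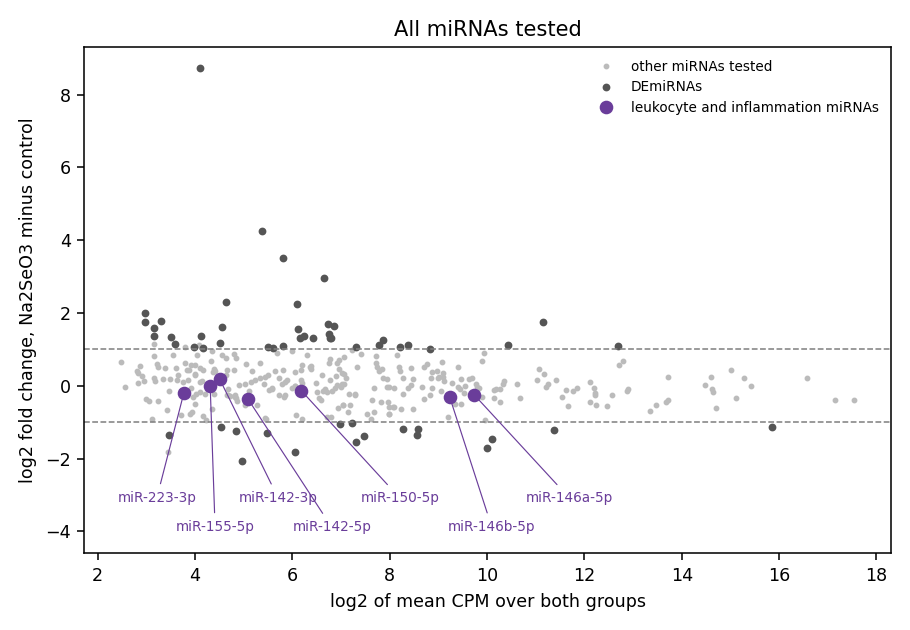
Log2 fold change (Na2SeO3 minus control) against the log2 of the mean CPM over both groups for the 341 miRNAs tested, with DEmiRNAs in dark grey, the 7 members named, and dashed lines at log2 fold changes of -1 and 1. The members run from -0.36 to 0.18, and none is a DEmiRNA.

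Counted reads can also be scaled to the raw reads that the study lists per library. Over all miRNAs tested the median then moved from 0.08 to -1.07, 53.4% of them were DEmiRNAs, and 6 of the 7 members were, all of them lower in the Na2SeO3 group. For rno-miR-142-3p the log2 fold change was -0.93 on that scale (adjusted p = 0.0616 by edgeR). Relative to the median of all miRNAs, the median of the members was -0.27 with TMM and upper-quartile scaling and -0.28 with RLE, library-size, and raw-read scaling. A change of library sizes moves all miRNAs alike, so the likeness of this distance between scalings follows from how they are made. Leaving out a library moved it both ways, to -0.14 without control library 2 and -0.15 without Na2SeO3 library 2, and to -0.34 without control library 3 and -0.35 without Na2SeO3 library 3. With library size only, the signs of rno-miR-150-5p (0.07) and rno-miR-155-5p (0.18) turned, neither with a call.

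**Figure D4:**
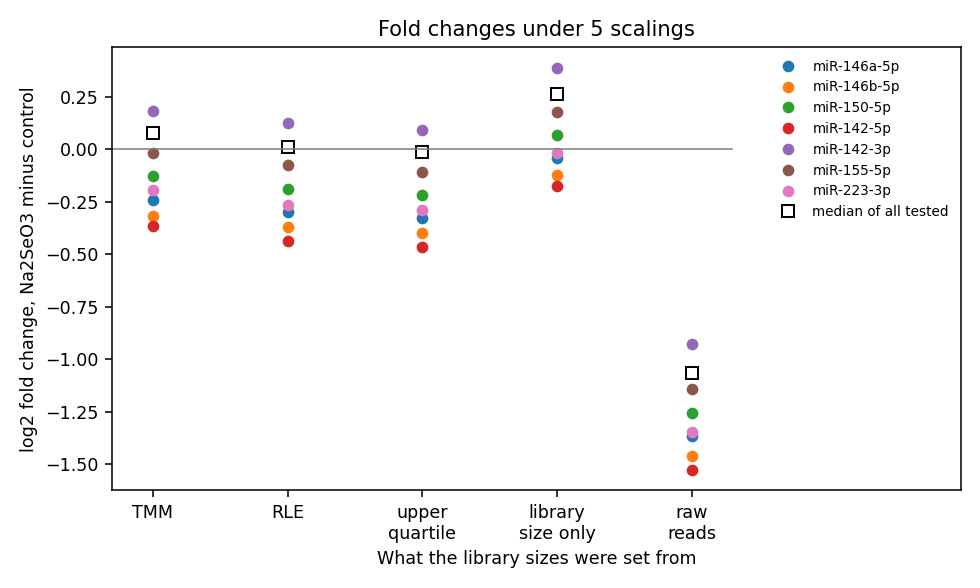
Log2 fold change (Na2SeO3 minus control) of the 7 members and the median of all miRNAs tested (open squares) under 5 ways to set library sizes. Each scaling moves all miRNAs by about the same amount, and the median lies between -0.01 and 0.27 in the scalings within miRNA counts and at -1.07 with raw reads.

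Other miRNAs known to respond to Toll-like receptors or NF-κB were taken as a list (miR-9a, miR-21, miR-132, miR-147, and miR-187, 9 names), of which 6 were tested. In the Na2SeO3 group 3 of the 6 fell, 1 rose, and 2 did not pass an adjusted p-value of 0.05, with a median log2 fold change of -0.39. Of all miRNAs tested, again, 13.8% fell and 20.8% rose. The arms of miR-132, which is also induced by CREB, were both DEmiRNAs. They come from the same hairpin and make up 2 of the 3 names that fell, so these names are not separate cases. The list was chosen with earlier results of these data known. The level of rno-miR-132-3p went from 254 ± 36.8 to 98.5 ± 18.1 CPM and that of rno-miR-132-5p from 235 ± 19.2 to 81.2 ± 8.72 CPM (SD over 3 libraries each), with log2 fold changes of -1.37 and -1.53 (adjusted p = 1.67e-04 and 3.84e-05 by edgeR). They were the only DEmiRNAs among the 6 tested names.

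The abundant rno-miR-21-5p, known for its induction in inflamed and injured tissue, was 11892, 12786, and 15220 CPM in the control libraries and 8445, 9685, and 9610 CPM in the Na2SeO3 libraries. Every Na2SeO3 library lay below every control library, and the change was -0.52 on the log2 scale (SE 0.15, adjusted p = 0.0137 by edgeR). It did not pass with library size only (-0.32, adjusted p = 0.0851) or without control library 3 (-0.42, adjusted p = 0.0711). The level of rno-miR-9a-5p, which neural tissue also makes in quantity, rose by 0.42 on the log2 scale (SE 0.15, adjusted p = 0.0478 by edgeR). Its groups overlapped, and 12 of the 16 alternatives did not keep the call. It was lost without Na2SeO3 library 1 (0.31), without Na2SeO3 library 3 (0.40), and without control library 1 (0.33), 2 (0.42), or 3 (0.54), and with raw reads the change was -0.71. The levels of rno-miR-187-3p and rno-miR-9a-3p had log2 fold changes of -0.26 and 0.15 without a call. For rno-miR-147, induced in macrophages by Toll-like receptors, 10, 8, and 10 reads in the control and 0, 1, and 1 reads in the Na2SeO3 libraries were too few to be tested after the filter. The Na2SeO3 libraries all lay below the control libraries, and without the filter its log2 fold change was -2.63 (SE 0.96, unadjusted p = 0.0217, adjusted p = 0.116 by edgeR).

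**Figure D5:**
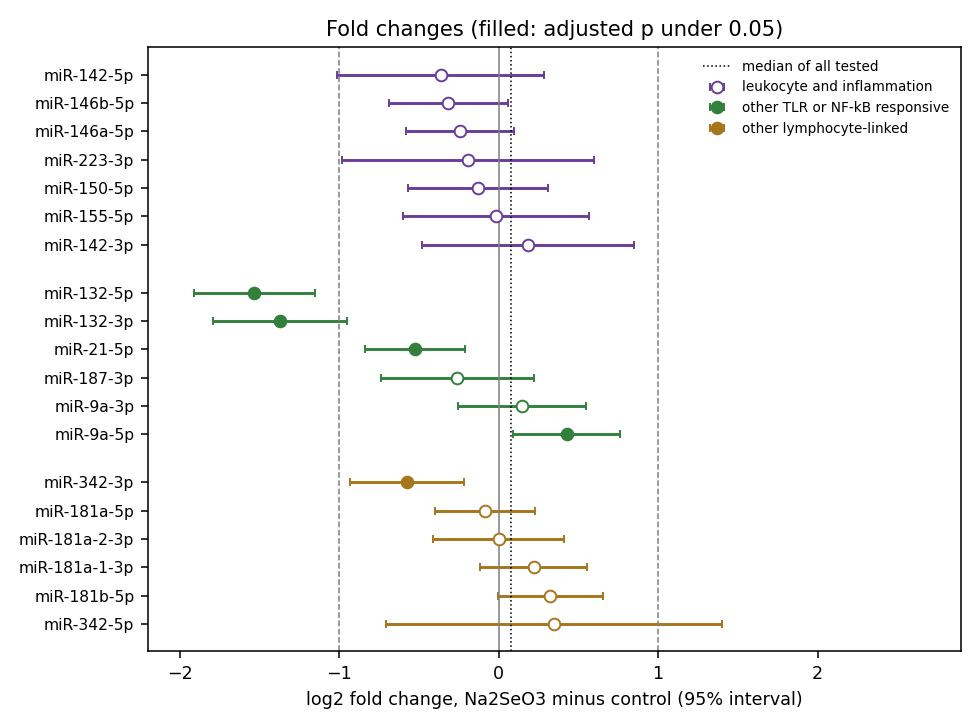
Log2 fold changes (Na2SeO3 minus control) with 95% intervals for the 7 members, the 6 tested names of the list linked to Toll-like receptors (TLR) or NF-κB, and 6 other lymphocyte-linked names, filled where the adjusted p-value was below 0.05. All 7 member intervals include 0, while those of both miR-132 arms, miR-21-5p, and miR-342-3p lie below it and that of miR-9a-5p above it.

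Of the other lymphocyte-linked miRNAs (miR-342, miR-181a, and miR-181b, 8 names), 1 of 6 tested passed an adjusted p-value of 0.05 (against 34.6% of all miRNAs tested) and the median log2 fold change was 0.11. This was rno-miR-342-3p, which fell from 303 ± 41.5 to 203 ± 5.23 CPM (SD over 3 libraries each), which is -0.57 on the log2 scale (adjusted p = 0.0160 by edgeR), without overlap of the groups. The change was -0.53 without control library 2 (adjusted p = 0.0679), -0.50 without control library 3 (adjusted p = 0.0647), and -0.37 with library size only (adjusted p = 0.0785 by edgeR). The other arm, rno-miR-342-5p, was at 0.35 (SE 0.49) without a call. miR-181a and miR-181b are made in many tissues besides lymphocytes, and none of their 4 tested names passed. Every Na2SeO3 library lay above every control library for rno-miR-181b-5p (log2 fold change 0.32, adjusted p = 0.118 by edgeR). The tested miR-181a names ran from -0.09 to 0.22.

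Markers of other cells that vessels bring were measured beside the members. The erythroid list (miR-144, miR-451, and miR-486) summed to 254 to 306 CPM in the control and 403 to 518 CPM in the Na2SeO3 libraries. Of its 3 tested names only rno-miR-486, which muscle also makes, was a DEmiRNA (against 16.4% of all miRNAs tested), with 137 ± 20.8 CPM in the control and 299.5 ± 86.6 CPM in the Na2SeO3 libraries (SD over 3 each, log2 fold change 1.12, adjusted p = 0.00148 by edgeR). Without Na2SeO3 library 1, the highest at 397 CPM, the change was 0.84 (adjusted p = 0.00275 by edgeR), which is below the fold change of a DEmiRNA, and with raw reads as library size it was -0.030 (adjusted p = 0.944 by edgeR). The red cell miRNA rno-miR-451-5p had a log2 fold change of 0.06 (adjusted p = 0.833 by edgeR). The endothelial miR-126a summed to 20568 to 26048 CPM and 25181 to 30491 CPM, and neither of its arms passed. The 8 names of miR-142, miR-223, miR-150, and miR-155 summed to 159 to 197 CPM in the control and 132 to 188 CPM in the Na2SeO3 libraries, so the leukocyte miRNAs overlapped between the groups. In the muscle list 4 of 6 tested names rose (against 20.8% of all miRNAs tested), with sums of 16767 to 21782 CPM in the control and 26323 to 31031 CPM in the Na2SeO3 libraries, and the part of this or of the erythroid sum in the members' values was not tested.

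As a description of likeness, each miRNA was set against rno-miR-142-3p by the root mean square difference of log2 CPM over the 6 libraries after centring each on its own mean. The 3 closest were rno-miR-345-5p (0.14), rno-miR-138-5p (0.15), and rno-miR-9a-3p (0.18), and none of them was a member. Its own 5p arm was at 0.47 and rno-miR-223-3p at 0.57, the largest of all pairs of members. The closest pair of members was rno-miR-150-5p with rno-miR-155-5p (0.14). Counting error enters these distances, with 10 reads of rno-miR-142-3p in Na2SeO3 library 1, and its part was not tested. The 3 closest were picked as the smallest distances over all miRNAs tested.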

How the data were processed

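Per the methods of the study, the authors filtered reads with Cutadapt and Fqtrim and checked quality with FastQC. Reads were then set against a reference genome from Ensembl with miRDeep and HISAT2. The methods do not say which tool gave the miRNA names. They deposited raw counts per miRNA name, and the build and versions are not given in the sources used here. Each library is a separate rat. The counts were filtered with filterByExpr (minimum count 10), scaled with TMM, and compared by the quasi-likelihood test of edgeR, with p-values adjusted over 341 miRNAs after Benjamini and Hochberg. CPM values were computed after TMM, and the log2 CPM for likeness used a prior count of 2. Intervals are 95% and come from the fit for fold changes and from Clopper-Pearson for shares. Count ratios used a pseudocount of 0.5. Named miRNAs were every member and, of the Toll-like receptor list, the tested names and rno-miR-147. The other lists were given by sums or counts, with some of their names picked out. The members and lists were chosen with earlier results of these data known. The most abundant miRNA of a marker list could also be named. The arm shares, miR-342-3p, miR-451-5p, and the closest pair of members were singled out after their values were seen. The procedure was also run on simulated counts, with changes larger than those of the members. That run does not show how small a change in a member could be found. Replicates differed by more than sampling noise (chi-square over degrees of freedom at least 28.0). The alternatives were other scalings, filters, and tests, rat names only, a replicate block, and a fit without each library in turn. The software was DESeq2 1.42.0, limma 3.58.1, and edgeR 4.0.16 under R 4.3.3.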

Additional observations from a re-analysis of the deposited data

How the results depend on the processing

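No member was a DEmiRNA under 15 of 16 alternatives. With raw reads as library size, 6 members were DEmiRNAs and 6 passed the adjusted p-value, beside 182 DEmiRNAs among all miRNAs. DEmiRNAs otherwise numbered 42 to 63. Their split was 39 up and 17 down with TMM, 32 and 22 with upper-quartile scaling, 53 and 10 with library size only, and 6 and 176 with raw reads. Leaving out each library gave 45 to 62 DEmiRNAs and 0 to 1 members past the adjusted p-value. Same-numbered libraries deviated from their group means with correlations of -0.17, -0.18, and -0.26, so the number alone does not pair them. With the replicate block 49 miRNAs and 0 members were DEmiRNAs, and miR-9a-5p lost its call (0.42, adjusted p = 0.0870, edgeR).

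Signs turned for these log2 fold changes. The median of all miRNAs tested also moved, from 0.08 to -1.07 with raw reads and to 0.27 with library size only. Any further cause of the turns was not tested. Before the turn, miR-9a-5p and miR-486 had an adjusted p-value below 0.05. With raw reads, miR-142-3p was at -0.93, miR-9a-3p at -0.99, miR-9a-5p at -0.71, and miR-486 at -0.030, and the adjusted p was 0.00932 for miR-9a-3p, 0.0187 for miR-9a-5p, and 0.944 for miR-486 (edgeR). With library size only, miR-150-5p was at 0.069 and miR-155-5p at 0.18, which was 0.032 with limma-voom. Fits without a single library ranged from -0.13 to 0.092 for miR-155-5p, from -0.39 to 0.12 for miR-223-3p, and from -0.011 to 0.29 for miR-9a-3p. The group difference of the log2 count ratio ran from -0.049 to 0.29 for miR-146a-5p to miR-146b-5p and from -0.65 to 0.11 for miR-223-3p to miR-142-3p. Reads were fewer for the members outside miR-146, from 9 to 187 per library in the tested names. The part of depth in their intervals was not tested.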

Other observations

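One name of another species matched a member's number. The mouse name mmu-miR-146a-3p had 6 counts in control library 3 and 0 counts in the other libraries, and it was left out because the members were defined by rat names.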
